A study of Homo sapiens with 12 samples.

Results

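KCTD10 is a substrate adaptor of the CUL3 ubiquitin ligase, and its RNA was followed here with that of the ligase core, 5 further genes of the KCTD family and a known substrate, RHOB. The 9 genes were taken by name from the 30574 loci of each library, each matched a single locus, and all 9 passed the filter on low values. KCTD10 was chosen by its FPKM values in BPA 2500 nM against DMSO, so that difference is described without a test. The RNA came from IOSE80, a line of human epithelial cells of the normal ovary that has been immortalised, harvested after an exposure of 28 days. The groups were 0.1% DMSO (n = 3), bisphenol A (BPA) at 0.25 nM (n = 3), BPA at 2500 nM (n = 3) and E2 (n = 2). BPA, a component of plastics, acts weakly on oestrogen receptors, and E2 commonly stands for the oestrogen estradiol. The sources used here give neither the dose of E2 nor a solvent for BPA and E2, and E2 replicate 3 was not analysed here. All groups are the same cell line. The labels do not say whether replicates came from separate cultures, and a p-value then covers only the spread among these samples, possibly technical.

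Cullin-RING ligases attach ubiquitin to proteins. In the CUL3 form, the scaffold CUL3 holds the RING protein RBX1 at one end and a BTB-domain adaptor at the other, and the adaptor chooses the substrate. KCTD10, KCTD13 and TNFAIP1 are close relatives known together as BACURD proteins, adaptors through which CUL3 can mark small GTPases such as RHOB for degradation. KCTD10 with CUL3 is known to act on RHOB in endothelial and other cells. RNA levels say nothing directly about the amount or the activity of these proteins.

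The labelled epithelial identity was only partly visible in marker genes. VIM was the most abundant marker at 688 FPKM on average, KRT18 stood at 22.8, NR2F2 at 3.19 and KRT8 at 1.34, while WT1, GATA4, CDH1 and PAX8 were at or near 0. Of 7 markers of ovarian surface epithelium, 3 averaged 1 FPKM or more, and their summed level was 24.7 to 31.7 with DMSO and 25.8 to 26.6 with BPA 2500 nM. Of 6 fibroblast markers, VIM and COL3A1 (28.7 FPKM) did, while COL1A1 was at 0.421 and COL1A2, DCN and LUM were at or near 0. Without VIM the fibroblast sum, nearly all COL3A1, was 30.9 to 32.6 with DMSO, 30.9 to 33.6 with BPA 0.25 nM, 23.4 to 24.3 with BPA 2500 nM and 27.8 to 29.6 with E2. This sum was thus lower in the libraries in which KCTD10 was lower, and its part in that result was not tested. Of 2 leukocyte markers matched, CD68 was at 46.0 FPKM and PTPRC at or near 0, as was CDH5 of endothelium. The summed FPKM of a library was 206719 to 213663, mitochondrial loci took 12.3 to 14.3% of it, and read depth is unknown.

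The KCTD10 locus spans chr12:109448655-109477305 on the minus strand of GRCh38 and starts head to head with UBE3B, 96 bases from the start of that gene in the files. The stretch below is shown because it lies between both starts, before the gene whose RNA differed most among the 9, and the TNFAIP1 sequence because that close relative was not called. Of the 96 and 100 bases searched before KCTD10 and KCTD13, only the stretch of at most 30 bases with the most motif matches is shown. TNFAIP1 is shown in full, so the density of matches cannot be compared among these sequences. Capitals mark matches to the searched motifs, and all sequences are RefSeq (GRCh38.p14), 5′ to 3′ on the strand of the gene.
KCTD10, chr12:109477362-109477391, minus strand: GGGCGGAAGTggggtgcggacagCGGAAGT
KCTD13, chr16:29926241-29926260, minus strand: CCGCCCccattcagGGGCGG
TNFAIP1, chr17:28335511-28335601, plus strand: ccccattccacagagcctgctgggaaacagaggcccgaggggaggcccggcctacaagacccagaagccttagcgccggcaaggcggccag
The KCTD10 stretch holds the ETS-type motif CGGAAGT at bases 4 to 10 and 24 to 30, the former overlapping a GC box, GGGCGG, at bases 1 to 6. It ends 57 bases before the locus start in the files, but GENCODE 29 also lists a KCTD10 transcript whose first exon covers it. Not shown are a GC box and a GCGTG between this stretch and the locus start, and a GCGTG in the bases before KCTD13. The KCTD13 stretch carried a GC box on each strand, and GENCODE 29 lists KCTD13 exons within the bases searched there. The 91 bases before the TNFAIP1 locus held none of the motifs. The RefSeq start of TNFAIP1 lies 159 bases after that locus start, and its RefSeq promoter window held 2 GC boxes. The sequences are thus at unlike positions.

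Over both strands of the RefSeq promoter windows (250 bases before to 50 after the start), 8 motifs were searched in 8 of the 9 genes, KCTD9 being left out. CGGAAGT was present in 2 of 8, KCTD10 and KCTD5, against 6.829% of 35116 windows, and KCTD10 alone of the 8 had 2 copies, where 1.119% of windows had 2 or more. GGGCGG was present in 8 of 8 (44.95% of windows) and the dioxin response core GCGTG in 5 of 8 (36.54%). An AP-1 motif, TGANTCA, was in KCTD20 only (7.709%) and an E-box, CACGTG, in RBX1 only (7.256%). The full palindromic oestrogen response element was in 0 of 8 (0.05695% of windows), as were TGACGTCA (1.848%) and TATAAA (11.53%). These matches describe letters in a window and not binding.

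KCTD10 RNA was lower in every BPA 2500 nM library than in any other library. Its level was 7.12, 7.09 and 7.30 FPKM with DMSO, 6.85, 7.13 and 7.0 at BPA 0.25 nM, 3.25, 3.79 and 3.73 at BPA 2500 nM, and 6.73 and 7.08 under E2. The 8 libraries without BPA 2500 nM thus lay within a narrow band, and the 3 with it lay well under that band. The mean with BPA 2500 nM was 3.59 ± 0.296 FPKM (SD, n = 3), which is 50.07% of the DMSO mean of 7.17 ± 0.114 (n = 3). On the log2(FPKM + 1) scale the difference was −0.83 ± 0.055 (SE), and it is given as a description because it chose the gene. Of 12182 loci tested, 1.3% were called in this comparison at an adjusted p under 0.05 (limma). In bulk RNA, fewer cells that express a gene and less of its RNA per cell cannot be told apart.

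**Figure D1:**
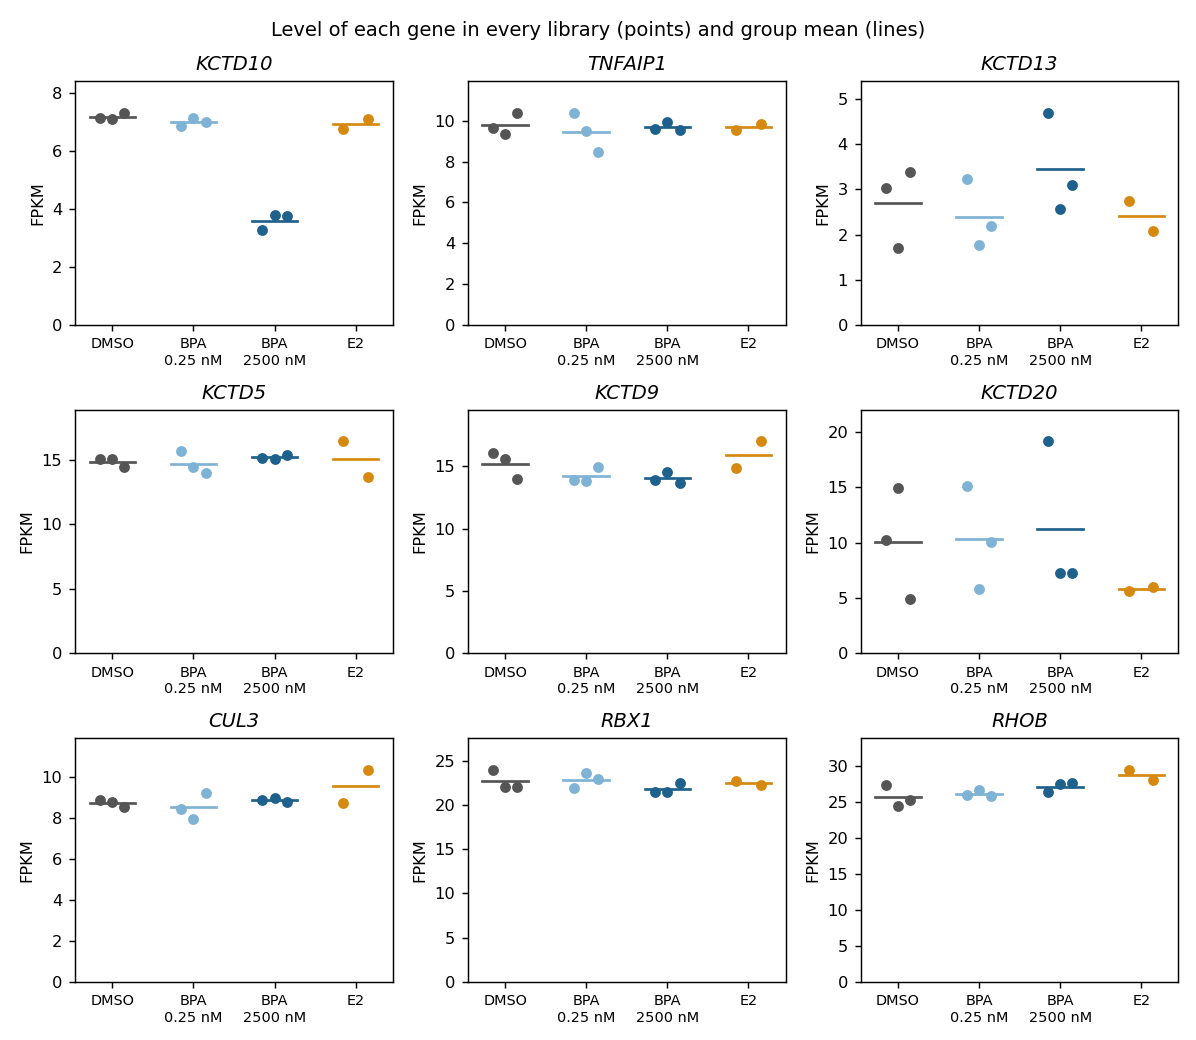
FPKM of the 9 genes in each of the 11 libraries (points) with group means (lines), by group on the horizontal axis and from 0 on each vertical axis. KCTD10 is at 3.25 to 3.79 in the BPA 2500 nM libraries and at 6.73 to 7.30 in all others, while KCTD13 and KCTD20 spread widely within groups.

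At the low dose and with E2, the KCTD10 means lay close to that of DMSO. The low-dose libraries overlapped with DMSO, whereas both E2 libraries, at most 7.08 FPKM, lay just below the lowest DMSO library at 7.09. The log2 difference from DMSO was −0.03 ± 0.055 (SE) with BPA 0.25 nM, 97.5% of the DMSO mean, and −0.05 ± 0.061 with E2, 96.3% of it. Both share the DMSO libraries with the comparison that chose the gene, so they too are descriptions. E2 against BPA 0.25 nM used neither the DMSO nor the BPA 2500 nM libraries in its difference, and there KCTD10 did not pass the test (−0.02 ± 0.061, 95% interval −0.15 to 0.12, limma adjusted p = 0.932). The SE, interval and p of E2 against BPA 0.25 nM still rest on the spread in all 11 libraries, including those that chose the gene. In that comparison 0.0493% of loci were called. BPA 2500 nM differed from BPA 0.25 nM by −0.80 ± 0.055 and E2 from BPA 2500 nM by 0.79 ± 0.061, again with the libraries that chose the gene. In those comparisons 0.0657% and 0.041% of loci were called.

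KCTD10 varied little between replicates. The SD within groups on the log2(FPKM + 1) scale was 0.056, smaller than in most loci, since 11.9% of the 12182 had a smaller one and the median was 0.104. This SD includes the libraries that chose the gene, and such a choice can favour a small spread, so it is a description. The mean of KCTD10 over libraries, 6.10 FPKM, was lower than that of every other of the 9 genes except KCTD13 (2.77). TNFAIP1 (9.66), KCTD20 (9.70) and CUL3 (8.86) lay close together above it, followed by KCTD9 (14.7) and KCTD5 (15), and RBX1 (22.5) and RHOB (26.8) were the most abundant. TNFAIP1, KCTD20 and CUL3 overlapped across libraries, as did KCTD9 and KCTD5, so their order is within the spread. KCTD20, at 4.95 to 19.18 FPKM, also overlapped with KCTD10, KCTD9 and KCTD5, and lay below KCTD10 in both E2 libraries.

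The close relatives of KCTD10 did not pass the test. TNFAIP1, a BACURD adaptor first described as a gene induced by tumour necrosis factor, was at 9.67, 9.37 and 10.39 FPKM with DMSO, 10.36, 9.51 and 8.46 at BPA 0.25 nM, 9.61, 9.96 and 9.53 at BPA 2500 nM, and 9.57 and 9.83 under E2. Its groups overlapped fully. The difference of BPA 2500 nM from DMSO was −0.01 (95% interval −0.17 to 0.14, limma adjusted p = 0.937). TNFAIP1 overlaps the end of the more abundant POLDIP2 (45.1 FPKM) on the opposite strand, and the sources used here do not say whether the libraries kept the strand.

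KCTD13, the BACURD adaptor of the 16p11.2 region, spread too widely for a small difference to be seen. It was at 3.04, 1.71 and 3.38 FPKM with DMSO, 3.24, 1.77 and 2.18 at BPA 0.25 nM, 4.70, 2.56 and 3.11 at BPA 2500 nM, and 2.75 and 2.08 under E2. BPA 2500 nM replicate 1 was the highest library, and the other 2 of that group lay within the DMSO range. The difference from DMSO was 0.27 (95% interval −0.27 to 0.80, limma adjusted p = 0.598), and the SD within groups, 0.328, was larger than in 92.7% of loci. ASPHD1 (13.1 FPKM) overlaps KCTD13 on the opposite strand, and the locus AC120114 (2.33 FPKM) lies within it on the same strand. Their part in the KCTD13 values was not tested.

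Within the BACURD trio, the balance therefore differed with BPA 2500 nM. KCTD10 made up 36.5 ± 2.25% of the summed FPKM of KCTD10, KCTD13 and TNFAIP1 with DMSO (SD, n = 3), 37.3 ± 3.33% at BPA 0.25 nM (n = 3), 21.5 ± 2.61% at BPA 2500 nM (n = 3) and 36.3 ± 1.38% under E2 (n = 2). TNFAIP1 stood at 1.37 times KCTD10 with DMSO and at 2.71 times with BPA 2500 nM. The sum of the trio was 19.7 ± 1.46 FPKM with DMSO and 16.7 ± 0.705 with BPA 2500 nM, and without KCTD10 it was 12.5 ± 1.36 and 13.2 ± 1.0. These shares and sums contain KCTD10 or were formed because of it, so no test is given.

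**Figure D2:**
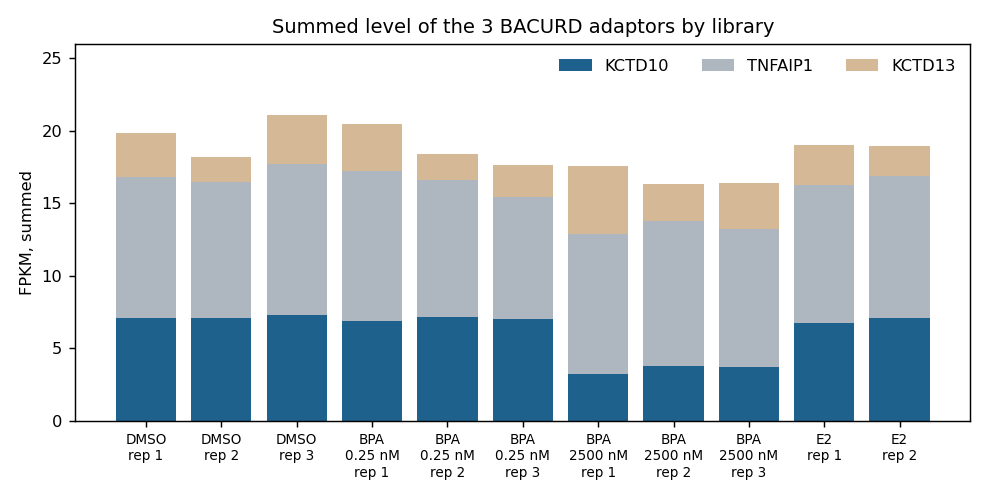
Stacked FPKM of KCTD10, TNFAIP1 and KCTD13 in each library, with libraries on the horizontal axis and the summed FPKM from 0 on the vertical axis. The KCTD10 segment is the one that is shorter in the 3 BPA 2500 nM libraries, where it is 18.5 to 23.2% of the bar against 33.5 to 39.7% elsewhere.

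The other KCTD genes among the 9 did not pass the test. KCTD5, an adaptor that acts on G protein beta-gamma subunits, was at 15.10, 15.05 and 14.50 FPKM with DMSO and 15.18, 15.10 and 15.39 with BPA 2500 nM, with 15.74, 14.44 and 14.02 at the low dose and 16.46 and 13.65 with E2. Its difference with BPA 2500 nM was 0.03 (95% interval −0.12 to 0.18, limma adjusted p = 0.851). KCTD9 was at 16.04, 15.56 and 14.02 FPKM with DMSO, 13.90, 13.79 and 14.93 at BPA 0.25 nM, 13.91, 14.56 and 13.65 at BPA 2500 nM, and 14.86 and 17.01 under E2. Each treatment overlapped with DMSO, whose replicate 3 was as low as the BPA libraries, while both E2 libraries lay above those of BPA 2500 nM. Its difference with BPA 2500 nM was −0.11 (95% interval −0.26 to 0.04, limma adjusted p = 0.445).

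KCTD20 was the most variable of the 9 genes. It was at 10.25, 14.91 and 4.95 FPKM with DMSO, 15.18, 5.84 and 10.11 at BPA 0.25 nM, 19.18, 7.30 and 7.24 at BPA 2500 nM, and 5.67 and 6.04 under E2. The DMSO replicates alone ran from 4.95 to 14.91, and both E2 libraries were within the DMSO range. The difference from DMSO was 0.12 with BPA 2500 nM (95% interval −0.91 to 1.16, limma adjusted p = 0.915) and −0.58 with E2 (−1.74 to 0.58, adjusted p = 0.651). With BPA 2500 nM, a change as large as that of KCTD10 in either direction was within the interval. Its SD within groups, 0.646, was larger than in 98.7% of loci.

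Neither gene of the ligase core passed the test. CUL3 was at 8.87, 8.79 and 8.52 FPKM with DMSO, 8.43, 7.93 and 9.2 at BPA 0.25 nM, 8.86, 8.95 and 8.80 at BPA 2500 nM, and 8.74 and 10.35 under E2. The groups overlapped, and E2 replicate 2 was the highest library. CUL3 differed from DMSO by 0.02 with BPA 2500 nM (95% interval −0.13 to 0.17, limma adjusted p = 0.899). RBX1 was at 24.02, 22.03 and 22.11 FPKM with DMSO, 21.94, 23.60 and 23.00 at BPA 0.25 nM, 21.49, 21.47 and 22.53 at BPA 2500 nM, and 22.74 and 22.33 under E2. Its difference with BPA 2500 nM was −0.05 (95% interval −0.16 to 0.05, limma adjusted p = 0.595). KCTD10 stood at 0.822 of CUL3 in the DMSO mean, 0.824 at BPA 0.25 nM, 0.405 at BPA 2500 nM and 0.727 under E2.

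RHOB, the small GTPase that KCTD10 with CUL3 is known to mark, was lowest with DMSO and highest with E2 by group mean. It was at 27.43, 24.53 and 25.38 FPKM with DMSO, 26.03, 26.72 and 25.94 at BPA 0.25 nM, 26.42, 27.51 and 27.65 at BPA 2500 nM, and 29.54 and 28.13 under E2. Both E2 libraries lay above all others, while the BPA and DMSO libraries overlapped. Against DMSO the difference was 0.16 ± 0.054 (SE) with E2 (95% interval 0.04 to 0.28), and it missed the threshold after adjustment over all loci (limma adjusted p = 0.212). With BPA 2500 nM, where KCTD10 was low, the difference was 0.08 ± 0.048 (95% interval −0.03 to 0.18, limma adjusted p = 0.457), and with BPA 0.25 nM it was 0.03 ± 0.048 (adjusted p = 0.912).

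Over the 8 genes other than KCTD10, 0 were called in each of the 6 comparisons (limma). At an unadjusted p under 0.05 the same fits gave RHOB in E2 against DMSO and in E2 against BPA 0.25 nM, and KCTD9 in E2 against BPA 2500 nM. Each is 1 of 8, beside 15.4%, 12.6% and 9.01% of all loci in those comparisons. BPA 0.25 nM and BPA 2500 nM against DMSO and BPA 2500 nM against BPA 0.25 nM gave 0 of 8, beside 9.11%, 17.2% and 7.81%. The share of all loci called was 0.0164% for BPA 0.25 nM, 1.3% for BPA 2500 nM and 0.419% for E2 against DMSO, so a count of 0 among 8 is near the background. In BPA 2500 nM against DMSO 0 of 8 had groups that did not overlap, where 17.1% of loci were lower and 9.54% higher without overlap. For BPA 0.25 nM it was also 0 of 8 (8.05% lower and 9.01% higher). With E2 RHOB was the 1 of 8, against 12.2% of loci that were higher and 16.2% that were lower without overlap. In E2 against BPA 0.25 nM RHOB was again the 1 of 8 (10.8% of loci higher, 16.9% lower). In E2 against BPA 2500 nM, RHOB and KCTD9 were higher and KCTD20 lower without overlap, 3 of 8 (13.4% of loci higher, 10.3% lower), and in BPA 2500 nM against BPA 0.25 nM it was 0 of 8 (4.66% higher, 12% lower).

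**Figure D3:**
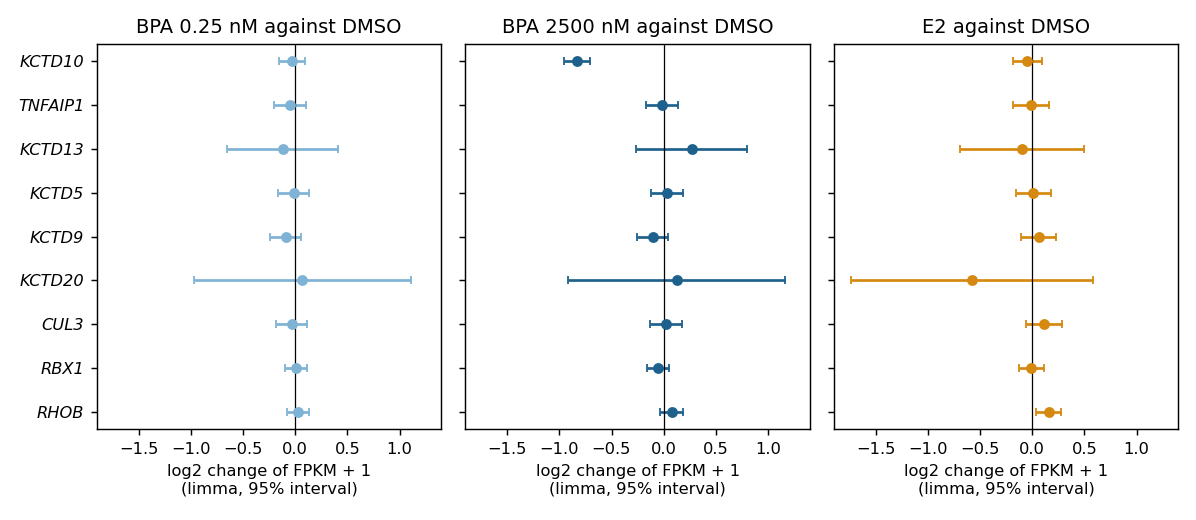
Log2 change of FPKM + 1 against DMSO (horizontal axis) with its 95% interval from limma, for the 9 genes in the 3 treatments. KCTD10 with BPA 2500 nM is at −0.83 and is shown as a description, RHOB with E2 is the one of the other genes whose interval is clear of 0 (0.04 to 0.28), and the intervals of KCTD13 and KCTD20 are the widest.

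The wider families of KCTD10 and CUL3 were described in the same way. Of 24 genes of the KCTD family, 23 matched a locus and 18 were tested. Besides KCTD10, which was chosen on one of these comparisons, 0 of them were called against DMSO in any treatment. Of all loci, 0.0164%, 1.3% and 0.419% were called for BPA 0.25 nM, BPA 2500 nM and E2, so this is near the background. At an unadjusted p under 0.05 (limma) were 0, 2 and 2 of the 18, KCTD10 among them with BPA 2500 nM. Over all loci it was 9.11%, 17.2% and 15.4%. With BPA 2500 nM the median change of the 18 was 0.02, beside −0.03 over all loci. KCTD15, known to inhibit AP-2 transcription factors, was at 6.08, 5.84 and 6.25 FPKM with DMSO, 7.25, 7.36 and 7.04 with BPA 2500 nM and 7.93 and 7.13 with E2. Both of those groups lay above DMSO without overlap, as did 9.54% of loci with BPA 2500 nM and 12.2% with E2. The differences of 0.22 ± 0.078 (SE, limma adjusted p = 0.197) and 0.27 ± 0.087 (adjusted p = 0.179) did not pass. KCTD17, an adaptor linked to cilia, differed by −0.18 ± 0.071 with E2 (adjusted p = 0.273).

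Of 42 BTB-Kelch and other BTB adaptors, 36 were tested and 0 were called against DMSO in any treatment, with 0, 12 and 4 of them at an unadjusted p under 0.05 for BPA 0.25 nM, BPA 2500 nM and E2, beside 9.11%, 17.2% and 15.4% of all loci. With BPA 2500 nM, 24 of the 36 were below DMSO, as were 57.2% of all loci, and the median was −0.07, beside −0.03 over all loci. KLHL18 was at 5.03, 5.15 and 4.96 FPKM with DMSO and 5.95, 5.96 and 5.92 with BPA 2500 nM, a difference of 0.20 ± 0.045 (SE, limma adjusted p = 0.0659). KLHL21, an adaptor of CUL3 in cell division, differed by 0.24 ± 0.060 (adjusted p = 0.0848). BTBD2 was at 7.88 and 6.25 FPKM with E2 and 8.97 to 9.86 with DMSO (−0.37 ± 0.082, adjusted p = 0.0756).

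Of 33 cullins, RING partners, and genes of neddylation and the COP9 signalosome, which attach and remove the NEDD8 that activates cullins, 31 were tested. Called against DMSO were 0 in any treatment, with 2, 4 and 3 at an unadjusted p under 0.05 (limma), beside the same 9.11%, 17.2% and 15.4% of all loci. CUL4B, the scaffold of another ligase, was at 12.34, 12.86 and 12.10 FPKM with DMSO and 9.86, 10.34 and 9.80 with BPA 2500 nM, a difference of −0.29 ± 0.066 (SE, adjusted p = 0.0688). DCUN1D1, a NEDD8 ligase for cullins, differed by −0.21 ± 0.077 (adjusted p = 0.211), and CAND1, which exchanges adaptors on cullins, by −0.33 ± 0.131 with BPA 0.25 nM (adjusted p = 0.518).

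Around KCTD10 on chromosome 12, no neighbour differed to the same extent. UBE3B, a ubiquitin ligase gene transcribed away from the shared start region, was at 4.10, 4.07 and 4.16 FPKM with DMSO, 4.10, 3.92 and 4.23 at BPA 0.25 nM, 3.0, 3.76 and 3.83 at BPA 2500 nM, and 3.82 and 3.56 under E2. All BPA 2500 nM libraries lay below all DMSO libraries, as in 17.1% of loci, and replicate 1 lay furthest below. Both E2 libraries also lay below all DMSO libraries, as in 16.2% of loci. With BPA 2500 nM the difference was −0.18 ± 0.073 (SE, limma adjusted p = 0.254), and KCTD10 stood at 1.74 times UBE3B with DMSO and 1.02 times with BPA 2500 nM. MVK and MMAB, a head-to-head pair of mevalonate kinase and a cobalamin enzyme, differed by −0.04 ± 0.070 and −0.01 ± 0.097 (adjusted p = 0.800 and 0.963). Of the 10 other tested loci that start within 500 kb, 0 were called against DMSO in any treatment, with 3, 3 and 1 at an unadjusted p under 0.05 for BPA 0.25 nM, BPA 2500 nM and E2 (9.11%, 17.2% and 15.4% of all loci). With BPA 2500 nM their changes ran from −0.24 (USP30) to 0.30 (ALKBH2). FAM222A was at 0.70, 0.71 and 0.74 FPKM with DMSO and 1.02, 0.87 and 0.95 with BPA 2500 nM (0.18 ± 0.095). It was thus higher without overlap, as in 9.54% of loci. FAM222A passed the filter on low values only through BPA 0.25 nM replicate 3 (1.18 FPKM) and BPA 2500 nM replicate 1, so this difference is a description. ACACB, an acetyl-CoA carboxylase, differed by −0.04 ± 0.057 (adjusted p = 0.778). MYO1H, which overlaps the end of KCTD10 on the opposite strand, was at or near 0.

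**Figure D4:**
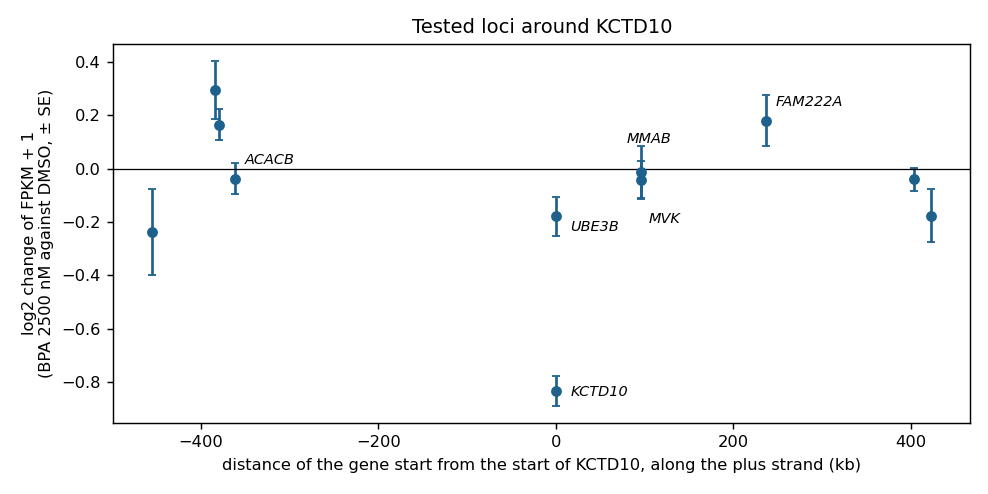
Log2 change of FPKM + 1 in BPA 2500 nM against DMSO (vertical axis, with SE) for the tested loci that start within 500 kb of the start of KCTD10 (horizontal axis, kb along the plus strand). KCTD10 is at −0.83, UBE3B beside it at −0.18, and the other loci lie between −0.24 and 0.30.

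The loci whose profile over the 11 libraries was most like that of KCTD10 were PPT1, CAMK2N1, ZNF195, XPA and CALCRL. Likeness was the root mean square difference of centred log2(FPKM + 1) values over 10932 loci of a single gene, and it was 0.164, 0.176, 0.177, 0.183 and 0.184, beside a median of 0.374. PPT1, a lysosomal thioesterase, was at 35.11, 33.38 and 36.53 FPKM with DMSO and 21.46, 27.38 and 19.90 with BPA 2500 nM. CALCRL, a receptor for peptides of the calcitonin family, was at 7.16, 7.25 and 7.34 FPKM with DMSO and 4.82, 4.59 and 4.80 with BPA 2500 nM. XPA, a protein of nucleotide excision repair, was at 10.81 to 12.70 FPKM with DMSO and 7.76 to 8.74 with BPA 2500 nM. All 5 were lower in each BPA 2500 nM library than in any other library, which the measure favours, and no test is given.

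Nearest to the mirror image of KCTD10 were DCTPP1 (0.213), STK24 (0.226) and HIST2H2AA3 (0.229). DCTPP1, a pyrophosphatase that clears modified cytidine nucleotides, was at 29.64, 26.13 and 29.10 FPKM with DMSO and 38.11, 37.33 and 36.95 with BPA 2500 nM. STK24, a kinase of the STE20 family, was at 2.98 to 3.37 FPKM with DMSO and 4.50 to 4.97 with BPA 2500 nM. HIST2H2AA3 is a histone gene with a near-identical copy, so its FPKM of 3.90 to 4.39 with DMSO and 5.19 to 7.42 with BPA 2500 nM are uncertain.

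**Figure D5:**
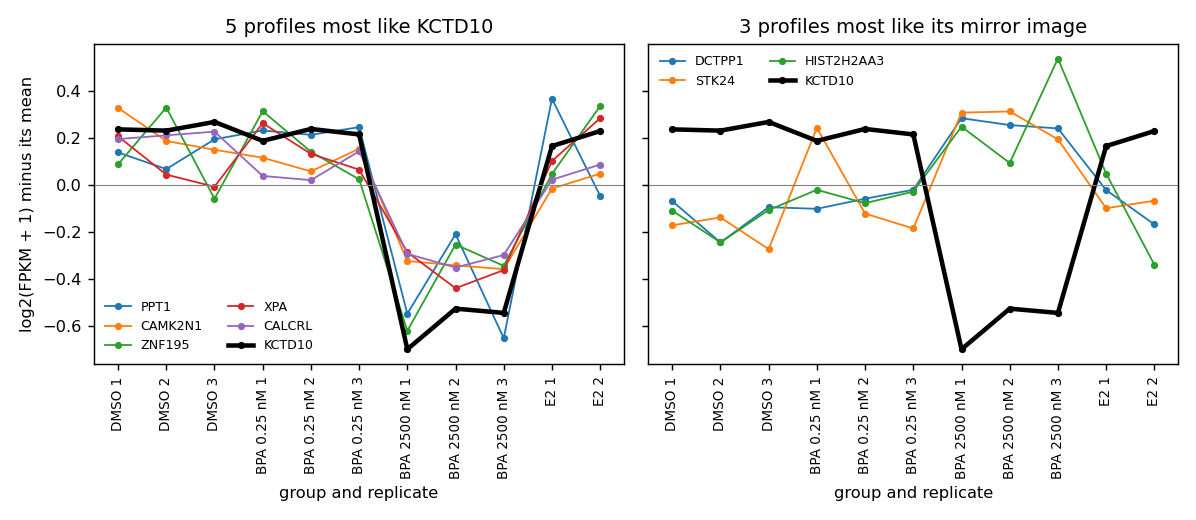
Centred log2(FPKM + 1) of KCTD10 (black) in the 11 libraries, beside the 5 most alike profiles (left) and the 3 nearest to its mirror image (right). The 5 alike genes dip with KCTD10 in the BPA 2500 nM libraries, and the 3 mirror genes are higher there on average.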

How the data were processed

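RNA was measured by sequencing (Trizol extraction, Illumina NovaSeq, per the labels' protocols) in 11 IOSE80 libraries of 4 groups. The values deposited by the authors are FPKM, a single value for each locus in each library. The tools StringTie, HISAT, edgeR and UMI-tools are named, without versions or settings, per the submitters' processing notes, which also name hg19. The coordinates are nevertheless those of GRCh38, since 74.8% of 14123 Ensembl loci have the positions of GENCODE 29. FPKM keep no depth, so precision comes from the spread between libraries.

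The 12182 loci that reached an FPKM of 1 in 2 or more libraries were fitted on log2(FPKM + 1) with limma 3.58.1 (trend and robust settings, R 4.3.3), with a mean per group over all 11 libraries and 7 residual degrees of freedom. This scale understates the change of low genes. Tests were two-sided, Benjamini-Hochberg adjusted within each of 6 comparisons, with calls at an adjusted p under 0.05. The fit was also run on simulated data with independent normal noise at each locus, which cannot show how reliable the calls in these libraries are. Comparisons with the same controls share their chance values.

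The text names the 9 genes, from each list the called members or those with the smallest p (not all printed; some genes and lists are not reported here), the tested genes of a list of neighbours of KCTD10, and the profiles most like it. These genes and lists were chosen with earlier results of these data known. Ratios, spread percentiles, counts of groups without overlap, sums of markers, the 500 kb window, the sequence stretches and the motifs were chosen after the values or sequences were seen and are descriptions. Other pseudocounts, filters, scalings, model settings, a replicate block and leaving out each library were tried. Plots used matplotlib 3.10.9 and tables pandas 2.3.3, in Python 3.11.15.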

Additional observations from a re-analysis of the deposited data

How the results depend on the processing

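The KCTD10 difference of BPA 2500 nM from DMSO was −0.98 with a pseudocount of 0.1. It lay between −0.866 and −0.779 (log2) when single libraries were left out. Its direction was the same in every setting, but this difference chose the gene, so that is a description and no test. Leaving out a BPA 0.25 nM or E2 library cannot move it. The KCTD10 change ran from −0.0439 to −0.0186 with BPA 0.25 nM and from −0.0798 to −0.0159 with E2. The BACURD share of KCTD10 with BPA 2500 nM ran from 20.65 to 23.01%. E2 against BPA 0.25 nM ran from −0.0482 to 0.0157, changing sign without E2 replicate 1, and was called in no setting. The other 8 genes had 0 calls against DMSO in each setting. Between treatments only KCTD10 passed the threshold, in 2 comparisons and in 1 with only the groups compared; both use the libraries that chose it, so this is no test. The list members called, 1, became 0 with no filter, with a mean FPKM of at least 5, with only the groups compared or with the replicate block, 2 after rescaling (KLHL18 added), and 0 to 4 without single libraries: without either E2 library CUL4B was also called (adjusted p down to 0.0267), as were, in E2 against DMSO, BTBD2 without E2 replicate 1 (0.0148) and COPS7A without E2 replicate 2 (0.0119). Some of these list members are not named. No pairing by replicate number was visible, though this check cannot exclude it. Deviations of same-numbered libraries correlated between −0.117 and 0.164 (median −0.006), and those of other pairs between −0.164 and 0.166 (median 0.011). The deviations of the 2 E2 libraries mirror each other, so their pairs add little. The replicate block cannot move the KCTD10 difference of −0.83, because DMSO and BPA 2500 nM hold the same replicate numbers. The block moved calls over all loci from 158 to 38 with BPA 2500 nM, 51 to 5 with E2 and 2 to 1 with BPA 0.25 nM. The 158 were 39 with no filter, 102 with a mean FPKM of at least 5, 13 with only the groups compared, and 32 to 251 without single libraries, so the background shares depend on the setting. Depth is unknown, and 2 or 3 libraries a group limit the precision.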
